A study of Mus musculus and Homo sapiens with 33 samples.

Results

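The genes described here are the long noncoding RNAs (lncRNAs) that H358 cells held at high levels. They were chosen by annotation and level alone: every row typed lncRNA whose mean normalised level over the libraries of the comparison was 300 or more. The rule took 127 of the 4368 lncRNA rows, out of 20347 rows of all gene types. No fold change entered the choice. The mean level itself was what chose the genes, so levels are given as description only. Of the 127, 95 carried a symbol and 32 only an identifier.

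H358 is a line derived from a human non-small-cell lung tumour. The study overexpressed the circular RNA cEMSY in 3 H358 libraries and set them against 3 libraries from cells given an empty vector (EV), whose labels call the cells wild type. A parallel experiment in the mouse Lewis lung carcinoma line LLC1 had 3 libraries with cEmsy overexpressed and 3 with EV. A separate drug panel in LLC1 had 3 libraries each with DMSO, doxorubicin, bortezomib, oxaliplatin and dactinomycin. It also had 3 each with (R)-crizotinib and cisplatin and with pemetrexed and cisplatin. The labels give the same time for all panel libraries. The panel served only for the circular RNAs described near the end. For the overexpression libraries no time is given. Time after transfer, the vector's promoter and the number of clones are not given in the labels used here. For H358 the values came as the authors' finished comparison, so levels are means over the 6 libraries, and values by library were not used here. The labels name no separate cultures or days for the numbered libraries, and every p therefore reflects variation among these libraries, part of which may be technical. In the authors' deposited table EMSY, the gene that the circle is named for, differed by a log2 fold change of 3.84 ± 0.07 (standard error, SE). Epithelial markers were at mean levels from 40.7 to 41882 over 7 of 7 listed genes, with KRT8 at 41882 and EPCAM at 40.7. Of these, 4 fell and 1 rose: KRT19 fell by 3.91 ± 0.31 on the log2 scale, KRT8 by 0.43 ± 0.06, KRT18 by 0.38 ± 0.07 and CDH1 by 0.37 ± 0.09, and CLDN4 rose by 1.86 ± 0.34. Of the markers of other cells, the 3 leukocyte genes with a row lay between 1.64 and 602 (CD68), the 2 endothelial genes between 2.52 and 2.75 and the 2 fibroblast genes between 7.55 and 70.3. PTPRC and CD3E were not analysed here. CD68 fell by 0.75 ± 0.13 on the log2 scale, and the endothelial CDH5, at a mean level of 2.75, was called lower. The part of these changes in the results below was not tested.

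An lncRNA is a long transcript that is not known to code for a protein; many are spliced, while the main transcripts of NEAT1 and MALAT1 are not. Some shape nuclear bodies: NEAT1 is the scaffold of paraspeckles, and MALAT1 collects in nuclear speckles, where splicing factors are stored. Others are hosts whose introns are cut into small nucleolar RNAs (snoRNAs) or microRNAs, and many lie antisense to, or are copied from, a protein-coding gene.

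The question put to these genes was which of them differed between cEMSY and EV cells. By the values of the authors' deposited table, 60 of the 127 passed an adjusted p of 0.05, 36 higher and 24 lower with cEMSY, and 67 did not pass. That is 47.2% of the 127 (28.3% higher and 18.9% lower), against 32.4% of all genes tested (15.6% higher and 16.8% lower). Protein-coding genes chosen by the same level passed in 48.4% of cases, 17.6% higher and 30.7% lower, and lncRNAs below the level in 10.7% (7.99% higher and 2.68% lower). The share called among abundant lncRNAs thus lay beside that of protein-coding genes of like level, and the split between the directions differed; neither difference was tested. The median log2 fold change of the 127 was -0.00, against 0.03 over all genes tested and -0.09 over the protein-coding genes of that level. The median size of the change, without its sign, was 0.30 in the 127 and 0.25 in those protein-coding genes. When fold changes were set against the median of the protein-coding genes, the calls became 43 higher and 18 lower.

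**Figure D1:**
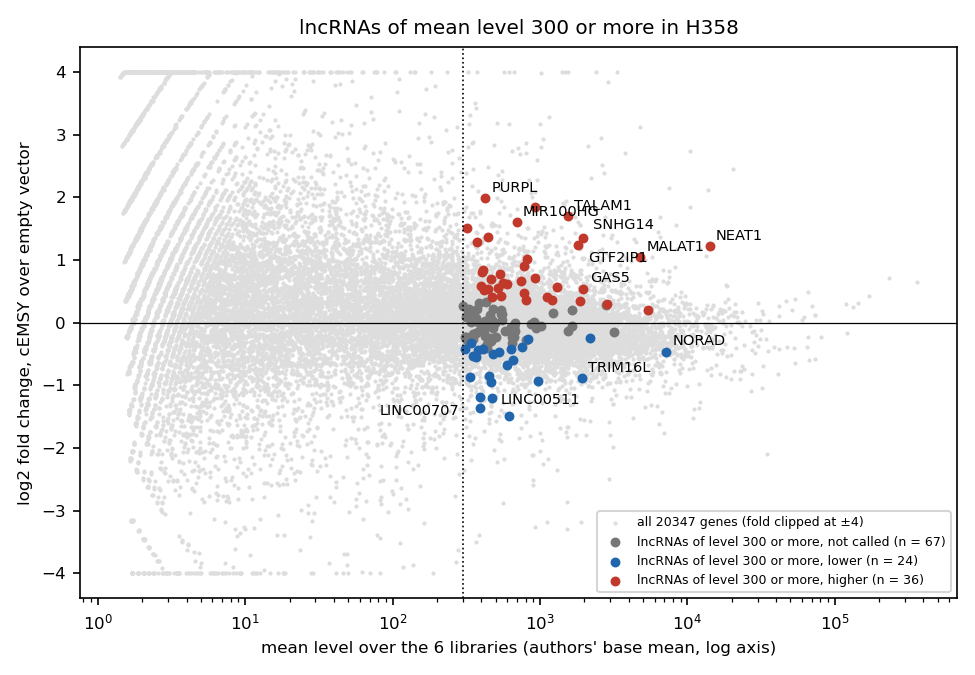
Log2 fold change of cEMSY over EV (vertical axis) against mean normalised level on a log axis (horizontal axis) for the 127 abundant lncRNAs of H358, from the authors' deposited table. Colour marks the 36 higher and 24 lower at an adjusted p of 0.05, pale dots are all 20347 genes with fold changes drawn no farther than 4 from 0, and the dotted line is the level of 300. Of the 22 lncRNAs at a level of 1000 or more, 12 were called higher and 3 lower, with no count of other genes at that level.

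Levels in the authors' deposited table ran from 301 to 14148 with a median of 499. They are not corrected for transcript length, so they give no order of molecule numbers between genes. Genes just inside the limit were CERS6-AS1 at 301, LINC00342 at 312 and NMRAL2P at 312, and just outside lay TMPO-AS1 at 299, ENSG00000228748 at 296 and FAM86DP at 294. Among the 64 genes below 500, 11 were called higher and 13 lower. Of the 41 from 500 to 1000, 13 were called higher and 8 lower. Of the 22 at 1000 or more, 12 were called higher and 3 lower, and their median log2 fold change was 0.29. The share called in either direction was 37.5%, 51.2% and 68.2% from the lowest tier to the highest. Shares of other genes in these tiers were not counted, so the split by level is description only. Whether it is particular to lncRNAs was not tested. Without tiers, 48.4% of protein-coding genes of level 300 or more were called, and 32.4% of all genes tested. SEs had a median of 0.132 and exceeded 0.25 in 2 genes. Since the level is a mean of both groups, a gene can pass it through 1 group. In all, 16 of the 127 had an implied level under 300 in either EV or cEMSY cells. Of these, 6 were called higher, 6 lower and 4 not called. Those called higher were PURPL, CASC19, PAPPA-AS1, ENSG00000260772, SNHG19 and CLN8-AS1. Those called lower included LINC00707, LINC00511, LINC00842 and DLEU2.

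The log2 fold changes spanned -1.49 to 1.99 (cEMSY over EV). Of the 60 called genes, 16 (12.6% of the 127) also changed by at least 2-fold, 12 higher (9.45%) and 4 lower (3.15%). Among all genes tested, 9.47% passed both limits, 6.6% higher and 2.87% lower. Among protein-coding genes of level 300 or more, 4.72% did, 2.71% higher and 2.01% lower. The share of all genes tested had no limit on level. Some of the 16 passed the level only through the group where they were high, as named above. Among the 67 genes that were not called, the 95% interval of the fold change lay within 0.5 on the log2 scale of 0 for 42 and within 1 for 66. The exception was a gene known by an identifier alone, with a log2 fold change of 0.13 ± 0.49.

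The nuclear RNAs NEAT1 and MALAT1 rose. In the authors' deposited table NEAT1 had a mean level of 14148, with implied group levels of 8500 in EV and 19796 in cEMSY cells. Its log2 fold change was 1.22 ± 0.06 (adjusted p = 2.57e-94). MALAT1 went from an implied 3105 to 6434 in the authors' deposited table, a log2 fold change of 1.05 ± 0.10 (adjusted p = 1.63e-22). TALAM1, the transcript antisense to MALAT1, moved from 727 to 2362 there, a log2 fold change of 1.70 ± 0.12 (adjusted p = 1.56e-40). The libraries kept strand per the labels' protocols, but the strand setting of the counting is not given, so reads of MALAT1 and TALAM1 cannot be told apart for certain.

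Of the 8 abundant lncRNAs listed for nuclear architecture, 3 rose, 1 fell and 4 were not called, with a median log2 fold change of 0.31. The 50% called stand beside 47.2% of all 127. Over the 15 listed genes with a row, 4 rose, 3 fell, 7 were not called and 1 had no adjusted p. The third that rose was FTX, a noncoding gene of the X-inactivation centre, with a log2 fold change of 0.66 ± 0.11 (adjusted p = 2.43e-08). The gene that fell, NORAD, acts mainly in the cytoplasm, where it binds PUMILIO proteins. Its log2 fold change in the authors' deposited table was -0.46 ± 0.07 at a mean level of 7161 (adjusted p = 5.75e-11). OIP5-AS1 (0.28 ± 0.14), JPX (0.34 ± 0.16), CHASERR (-0.14 ± 0.11) and the imprinted MEG3 (0.08 ± 0.14) did not pass the test, and setting values against the protein-coding median brought OIP5-AS1 and JPX past it.

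Genes for proteins that meet these RNAs mostly had negative fold changes. The values here and for the protein lists below are RNA levels of the genes. Protein levels were not analysed here. Of 28 paraspeckle protein genes in the authors' deposited table, 16 fell, 1 rose and 11 were not called, with a median log2 fold change of -0.25. RBM14, which is needed for paraspeckles to form, fell by 0.76 ± 0.08 on the log2 scale (adjusted p = 8.94e-22). SFPQ, a core paraspeckle protein, fell by 0.40 ± 0.06 and TARDBP by 0.50 ± 0.06 in the authors' deposited table. The genes of the core proteins NONO (-0.06) and PSPC1 (-0.14) did not pass the test. The gene that rose was ZC3H6, with a log2 fold change of 1.30 ± 0.41. Of 22 nuclear speckle protein genes, 12 fell and none rose, with a median of -0.38. The splicing factor gene SRSF1 fell by 0.54 on the log2 scale and the mRNA export factor gene ALYREF by 0.65. The speckle scaffolds SON (-0.58 ± 0.27, adjusted p = 0.085) and SRRM2 (0.03) were not called. These counts stand beside 30.7% of protein-coding genes of level 300 or more that were called lower. Mean levels in these lists ran from 151 (ZC3H6) to 28361 (HNRNPA1), many far above 300. Shares at matched levels were not counted, here or for the protein lists below.

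**Figure D2:**
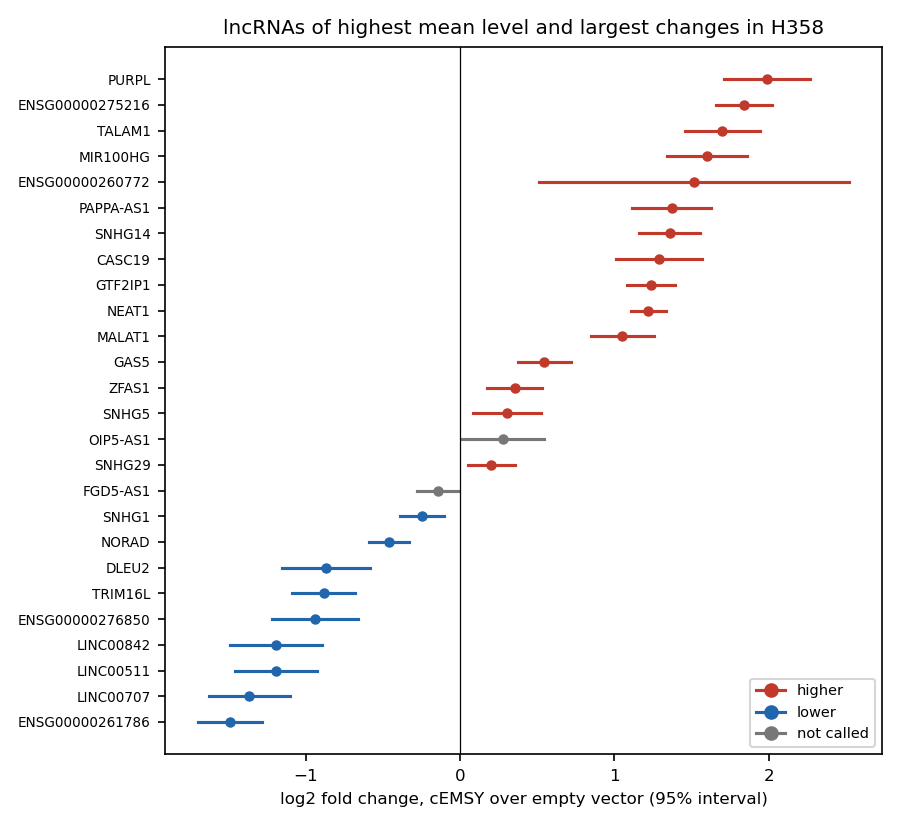
Log2 fold change of cEMSY over EV with 95% intervals for the abundant lncRNAs with the highest levels and the largest called increases and decreases, from the authors' deposited table. PURPL lies farthest to the right at 1.99, and LINC00707 at -1.37 is the lowest with a symbol.

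SnoRNA host genes were the largest role group. Of 19 hosts among the abundant lncRNAs, 8 rose, 1 fell and 10 were not called, with a median log2 fold change of 0.20. The share called, 47.4%, was near the 47.2% of all 127; 42.1% rose, against 28.3% of the 127, a difference that was not tested. Over all 32 listed hosts with a row, 8 rose, 2 fell and 22 were not called. SNHG14, the long transcript of the imprinted Prader-Willi region that carries the SNORD116 and SNORD115 clusters, rose by 1.36 ± 0.10 on the log2 scale (adjusted p = 1.72e-39). SNHG19 rose by 0.84 ± 0.21 (adjusted p = 0.000469), EPB41L4A-AS1 by 0.70 ± 0.14 (adjusted p = 9.78e-06) and SNHG32 by 0.63 ± 0.12 (adjusted p = 1.99e-06) in the authors' deposited table. GAS5, whose spliced RNA accumulates when growth stops, rose by 0.54 ± 0.09 (adjusted p = 5.35e-09). ZFAS1 rose by 0.35 ± 0.09 (adjusted p = 0.000716). Calls were less firm for SNHG5 (0.30 ± 0.11, adjusted p = 0.0267) and SNHG29 (0.20 ± 0.08, adjusted p = 0.0338), which were lost when the median of all genes was subtracted.

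SNHG1 was the host that fell, by 0.25 ± 0.07 on the log2 scale (adjusted p = 0.00274), a call lost against the protein-coding median. The hosts that were not called ran from SNHG12 at -0.28 ± 0.20 to SNHG8 at 0.22 ± 0.18 in the authors' deposited table. SNHG3 (0.01 ± 0.11), DANCR (0.01 ± 0.13) and SNHG17 (-0.02 ± 0.12) were near 0, and their 95% intervals lay within 0.5 on the log2 scale. SnoRNAs themselves were not analysed here. Of 18 genes for proteins of the snoRNA-protein particles and their assembly, 9 fell, none rose and 9 were not called. Their median log2 fold change in RNA was -0.29. The 50% that fell stand beside 30.7% of protein-coding genes of level 300 or more. DKC1, the gene of dyskerin, the pseudouridine synthase of H/ACA particles, fell by 0.57 ± 0.07 on the log2 scale in the authors' deposited table. NOLC1 fell by 0.51, NOP58 by 0.45 and the methyltransferase gene FBL by 0.33.

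Spliced snoRNA host RNAs are commonly degraded by nonsense-mediated decay, and other nuclear RNAs by the exosome. Of 19 nonsense-mediated decay genes, 10 (52.6%) fell, none rose and 9 were not called in the authors' deposited table, with a median log2 fold change of -0.29. RBM8A fell by 0.59, EIF4A3 by 0.55, both parts of the exon junction complex, and the helicase UPF1 by 0.29 on the log2 scale. Of 23 nuclear RNA decay genes 9 (39.1%) fell, none rose and 14 were not called, with a median of -0.23. Protein-coding genes of level 300 or more were called lower in 30.7% of cases and had a median of -0.09, so the share of the second list lay near that of genes in general. EXOSC5, an exosome subunit, fell by 0.65 and the exosome nuclease DIS3 by 0.32. The helicase MTREX (-0.35, adjusted p = 0.0527) did not pass. Whether these RNA levels bear on those of the lncRNAs was not tested.

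**Figure D3:**
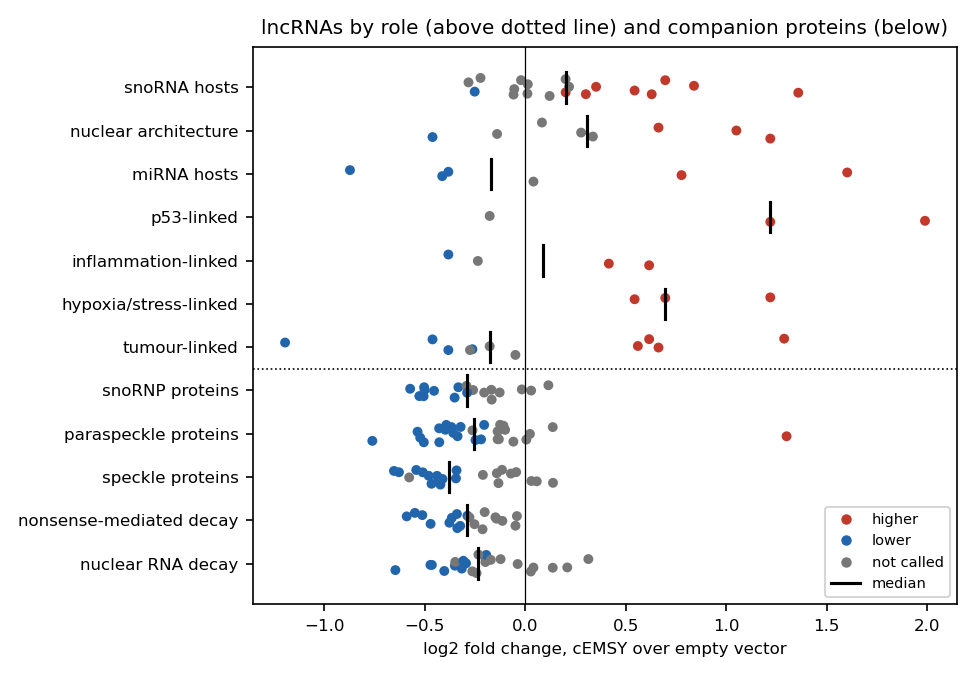
Log2 fold changes of cEMSY over EV for each abundant lncRNA by role group and for each gene of the companion protein lists, from the authors' deposited table. SnoRNA hosts have a median of 0.20, and the protein lists have medians between -0.38 and -0.23.

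Of 6 abundant lncRNAs listed as microRNA hosts, 2 rose, 3 fell and 1 was not called, with a median log2 fold change of -0.17. The 83.3% called stand beside 47.2% of all 127, a difference that was not tested. The balance rests on which genes are counted as hosts. FTX, which hosts miR-374b, and MIR1915HG (0.47 ± 0.10, adjusted p = 1.39e-05) are not in the list and rose. With them 4 rose and 3 fell of 8, and the median was 0.25. Both were added after their values were seen, so the move upward follows from that choice. Other abundant lncRNAs that may host microRNAs were not added. LINC00472 and NUTM2A-AS1 were listed without a reference at hand to check the hosting; without them, but with FTX and MIR1915HG, 3 rose and 3 fell of 6, with a median of 0.04. Over all 26 listed genes with a row, 7 rose, 5 fell and 14 were not called. MIR100HG, host of miR-100 and miR-125b, rose by 1.60 ± 0.13 on the log2 scale (adjusted p = 9.03e-32) at a mean level of 697. LINC00472 rose by 0.78 ± 0.20 (adjusted p = 0.000403). DLEU2, host of miR-15a and miR-16, which restrain cell-cycle genes, fell by 0.87 ± 0.14 (adjusted p = 2.34e-08). The implied level of DLEU2 was 433 in EV and 237 in cEMSY cells. MIR4435-2HG fell by 0.38 ± 0.11 (adjusted p = 0.00171). MIR22HG fell by 0.41 ± 0.15 (adjusted p = 0.0186), a call lost against the protein-coding median. The mature microRNAs were not measured. To show what these hosts carry, their mouse mature sequences are given from RefSeq (GRCm38.p6), 5′ to 3′, 22 bases each, with the seed in capitals. The seed is the stretch that pairs with targets, bases 2 to 8. The pair in DLEU2 share the seed AGCAGCA, and the pair in MIR100HG do not share theirs.
mmu-miR-100-5p: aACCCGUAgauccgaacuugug
mmu-miR-125b-5p: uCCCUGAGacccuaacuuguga
mmu-miR-15a-5p: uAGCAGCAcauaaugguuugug
mmu-miR-16-5p: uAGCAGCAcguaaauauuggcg
mmu-miR-22-3p: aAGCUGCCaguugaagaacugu
mmu-miR-374b-5p: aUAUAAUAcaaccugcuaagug
In the mouse genome miR-100 lies at chr9:41531437-41531458 and miR-125b at chr9:41581940-41581961, both on the plus strand. MiR-15a lies at chr14:61632075-61632096 and miR-16 at chr14:61631936-61631957, both on the minus strand. MiR-22 lies at chr11:75463772-75463793 on the plus strand and miR-374b at chrX:103573112-103573133 on the minus strand.

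PURPL, a p53 target that holds basal p53 low, had the largest increase of the 127. In the authors' deposited table it went from an implied 171 in EV to 678 in cEMSY cells, a log2 fold change of 1.99 ± 0.14 (adjusted p = 5.77e-42). Its mean level was 424, so it passed the level through the cEMSY libraries. Of the 3 abundant lncRNAs listed as p53-linked, PURPL and NEAT1 rose and PVT1 (-0.18 ± 0.11) was not called. Below the level of 300, TP53TG1, LINC-PINT and MIR34AHG, the host of miR-34a, also rose. Of the 13 listed genes 6 had a row, of which 5 were called higher and none lower. Among the 127, 28.3% were called higher, and among lncRNAs below the level 7.99%. The list is short, and its difference from these shares was not tested.

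Of 4 abundant lncRNAs listed as linked to interferon or inflammation, 2 rose. LUCAT1, which restrains interferon responses in human myeloid cells, rose by 0.62 ± 0.11 on the log2 scale (adjusted p = 1.16e-07). HEIH, whose place in this list was not checked here, rose by 0.42 ± 0.12 (adjusted p = 0.00345). The balance of the list rests on whether HEIH is counted. MIR4435-2HG fell, as given above, and NRAV (-0.24 ± 0.13) was not called. Over the 14 listed genes with a row, 3 rose, 2 fell, 8 were not called and 1 had no adjusted p. The 3 genes linked to hypoxia or stress, NEAT1, GAS5 and EPB41L4A-AS1, all rose, and each is counted in another group too. Over the 8 listed genes with a row, those 3 rose and 4 were not called. The imprinted H19, below the level of 300, fell by 1.87 ± 0.37 on the log2 scale (adjusted p = 4.72e-06). Of all 127, 28.3% were called higher and 18.9% lower, and neither list was tested against these shares.

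Of 11 tumour-linked lncRNAs, 4 rose, 4 fell and 3 were not called, with a median log2 fold change of -0.18. The 72.7% called stand beside 47.2% of all 127, a difference that was not tested. CASC19, from the gene desert beside MYC, rose by 1.29 ± 0.14 (adjusted p = 8.54e-18), from an implied 217 to 530. LINC01234 rose by 0.56 ± 0.16 (adjusted p = 0.00193). LINC00511 fell by 1.19 ± 0.14 (adjusted p = 6.03e-17) in the authors' deposited table, at a mean level of 472. Its implied level was 657 in EV and 287 in cEMSY cells. AFAP1-AS1 fell by 0.26 ± 0.11 (adjusted p = 0.048), a call lost against the protein-coding median. CYTOR (-0.27 ± 0.12) and DUXAP8 (-0.05 ± 0.11) were not called, and against the median of all genes CYTOR passed. Over the 35 rows of listed genes, 9 rose, 7 fell, 18 were not called and 1 had no adjusted p. The uncalled rows include a further DUXAP8 row, typed as a pseudogene, at a mean level of 2.74.

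Other large decreases were in genes without a listed role. LINC00707 went from an implied 564 to 219 in the authors' deposited table, a log2 fold change of -1.37 ± 0.13 (adjusted p = 7.26e-23). LINC00842 went from 548 to 240, a log2 fold change of -1.19 ± 0.15 (adjusted p = 9.37e-14). Without a symbol, ENSG00000261786 fell by 1.49 ± 0.11, ENSG00000276850 fell by 0.94 ± 0.14 and ENSG00000275216 rose by 1.84 ± 0.09 on the log2 scale. ENSG00000260772 rose by 1.52 with the largest SE of the 127, 0.51 (adjusted p = 0.0124). FGD5-AS1, among the 12 of highest level at 3184, had a log2 fold change of -0.15 ± 0.07 (adjusted p = 0.095) and passed only when the median of all genes was subtracted. The 32 genes known by identifier held 6 increases, 6 decreases and 20 uncalled genes, and the 51 with a symbol but no listed role held 12, 11 and 28.

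Among lncRNAs named after a coding gene, some changed with that partner and others against it. For 29 such genes the partner had a row: 23 were named as antisense, 5 as divergent and 1 as overlapping transcripts. The same sign was seen in 18 pairs, 14 of them antisense, with no count from unpaired genes beside it. Both genes were called in 7 pairs, all antisense, the lncRNA alone in 4, the partner alone in 6 and neither in 12. PAPPA-AS1 rose by 1.37 ± 0.13 on the log2 scale (adjusted p = 9.31e-24), and PAPPA, a secreted protease that cuts IGF-binding proteins, by 1.28 ± 0.09. The implied level of PAPPA-AS1 was 247 in EV and 640 in cEMSY cells. LIMD1-AS1 rose by 0.71 ± 0.10 and LIMD1 by 0.47 ± 0.15 in the authors' deposited table. KRT7-AS fell by 0.54 ± 0.14 and KRT7, a simple-epithelium keratin, by 1.05 ± 0.06, and AFAP1-AS1 and AFAP1 fell too.

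In 3 pairs the lncRNA rose and the partner fell, and in 0 pairs the reverse. Of all 127 lncRNAs, 28.3% were called higher and 18.9% lower. Protein-coding genes of level 300 or more were called higher in 17.6% and lower in 30.7% of cases. Whether the pair counts differ from what these shares alone would give was not tested. CLN8-AS1 rose by 0.80 ± 0.14 and CLN8 fell by 0.50 ± 0.18 (adjusted p = 0.0207). EPB41L4A fell by 1.83 ± 0.38 (adjusted p = 1.54e-05), against the increase of its antisense gene given above. GABPB1-AS1 rose by 0.36 ± 0.13, and GABPB1, a subunit of the transcription factor GABP, fell by 0.64 ± 0.11 in the authors' deposited table. DHRS4-AS1 rose by 0.58 ± 0.15, with DHRS4 at 0.24 (adjusted p = 0.197). Across the 29 pairs Pearson's r was 0.20 and Spearman's rho 0.23, a description across genes that share the same 6 libraries. Partners were matched by symbol. Without a stated strand setting, reads of overlapping partners cannot be told apart for certain.

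**Figure D4:**
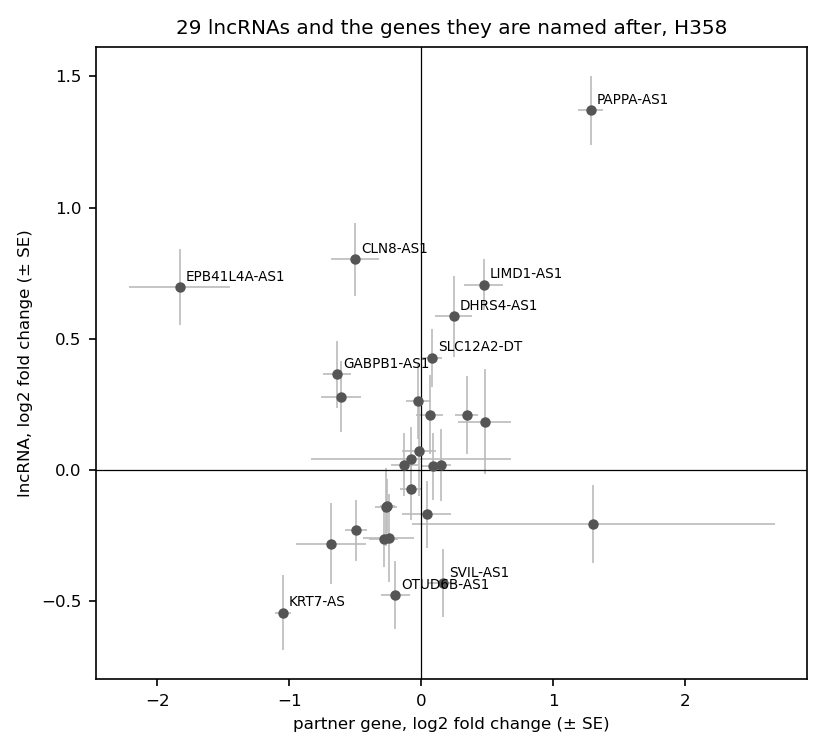
Log2 fold change of cEMSY over EV for 29 abundant lncRNAs (vertical axis) against that of the partner named in the symbol (horizontal axis), with SE, from the authors' deposited table. PAPPA-AS1 lies at upper right with 1.37 and its partner at 1.28, and EPB41L4A-AS1 at upper left with 0.70 and its partner at -1.83.

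Some rows typed lncRNA are copies of coding genes, and reads may be shared between copies, so their values are uncertain. GTF2IP1 rose by 1.23 ± 0.08 on the log2 scale (adjusted p = 5.61e-52) in the authors' deposited table, its sister copy GTF2IP4 by 1.03 ± 0.08, while the parent GTF2I stood at 0.07 ± 0.11 (adjusted p = 0.718). NSUN5P1 rose by 0.52 ± 0.13, with its parent NSUN5 at -0.09. TRIM16L fell by 0.89 ± 0.10 (adjusted p = 6.78e-16) and its parent TRIM16 by 0.95 ± 0.07. SBDSP1 fell by 0.60 ± 0.11 and its parent SBDS, a ribosome maturation factor, by 0.47 ± 0.08. CASTOR3 rose by 1.01 ± 0.11, and its coding relative CASTOR2 by 0.79 ± 0.13. MFSD14C (-0.40 ± 0.17, adjusted p = 0.0556) and TXLNGY (-0.06 ± 0.12) were not called, with MFSD14B at -0.51 ± 0.07 and TXLNG at -0.06 ± 0.09. Some of these symbols also have a row typed as a pseudogene. TRIM16L fell there too (-0.88 ± 0.17). GTF2IP1 (-2.30 ± 2.65), NSUN5P1 (-0.95 ± 0.90) and SBDSP1 (1.12 ± 3.49) were not called there and had the opposite sign. These pairs were assembled after their values had been seen.

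In LLC1 cells 28 of the 127 genes had a mouse counterpart by RefSeq name, and 1 of them, Snhg16, was among the rows of the overexpression table. The row carries the symbol 1810032O08Rik, which RefSeq gives as a synonym of Snhg16. The authors had restricted that table to changed genes. Of the rows tested there, 100% passed an adjusted p of 0.05 (47.3% higher and 52.6% lower), so a call carries no weight of its own. Snhg16 had signal values of 14.5, 13.4 and 15.3 in the EV libraries and 4.67, 4.59 and 3.80 in the cEmsy libraries. The groups did not overlap, and all 3 cEmsy libraries were low. As the rows had been chosen for change, this carries no weight of its own either. The share of rows without overlap was not counted. The means were 14.4 ± 0.951 and 4.35 ± 0.481 (SD, n = 3 each), a 3.31-fold difference. On the log2(value + 1) scale the difference was -1.53 ± 0.09 (limma adjusted p = 1.23e-07).

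In H358 the authors' deposited table gave SNHG16 a log2 fold change of 0.20 ± 0.10 (adjusted p = 0.0933, 95% interval 0.01 to 0.39) at a mean level of 1641, a value that passed against the protein-coding median. The cell lines, tables and units differ, and the difference between the lines was not tested. As the 1 gene seen in both, its mouse promoter is given from RefSeq (GRCm38.p6, plus strand, chr11:116671410-116671709), 250 bases before the start in lower case and the first 50 transcribed bases in capitals. Its GC content was 57.3%, against a median of 52.7% over 32851 mouse promoters.
Snhg16 promoter: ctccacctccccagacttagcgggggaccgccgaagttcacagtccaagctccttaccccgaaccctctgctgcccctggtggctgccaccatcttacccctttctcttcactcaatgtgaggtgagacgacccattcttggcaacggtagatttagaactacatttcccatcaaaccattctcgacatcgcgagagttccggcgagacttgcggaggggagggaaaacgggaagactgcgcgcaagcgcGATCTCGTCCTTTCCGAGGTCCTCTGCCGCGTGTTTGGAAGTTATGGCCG

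**Figure D5:**
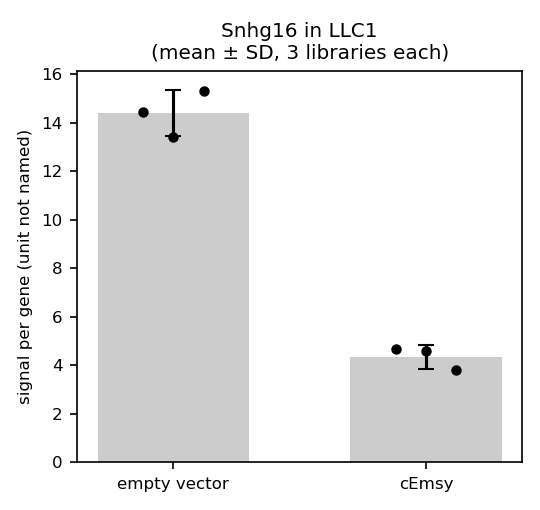
Snhg16 signal (unit not named by the authors) in each LLC1 library with EV and with cEmsy overexpressed, with group means and SD. The EV libraries sit between 13.4 and 15.3 and the cEmsy libraries between 3.80 and 4.67.

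Of the companion protein genes, 14 had a row in the LLC1 table, 13 lower and 1 higher with cEmsy. Of all rows tested there, 52.6% were lower and 47.3% higher. Nop56, the gene of a core protein of C/D snoRNA particles, had mean signals of 180.5 ± 10.6 with EV and 44.8 ± 4.15 with cEmsy (SD, n = 3 each). The log2 difference was -1.99 ± 0.08 (limma adjusted p = 1.29e-08). Dkc1 fell by 1.39 ± 0.09 on the log2 scale and Sfpq by 1.27 ± 0.11, from 39.1 ± 3.65 to 15.8 ± 2.56. Rbm14 fell by 1.74 ± 0.08. The gene that rose, the splicing factor gene Srsf5, went from 63.2 ± 2.34 to 151 ± 14.8. Since the rows were preselected, genes of these lists that did not change in LLC1 cannot be counted.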

How the data were processed

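Total RNA was depleted of ribosomal RNA and made into stranded libraries, per the labels' protocols. STAR and featureCounts are named in the submitters' processing notes, beside the quality tools FastQC and MultiQC, as are builds hg19 and mm10. Their versions and roles, and the strand setting of the counting, are not stated in any source used. For H358 the authors deposited a finished comparison: a mean level (a normalised signal), a log2 fold change, 2 score columns deposited by the authors (the error of that change and the test statistic), and p-values as deposited, raw and adjusted. The statistic equalled fold over error within 0.001 in all 20347 rows, and 1193 rows had no adjusted p. A gene was called at an adjusted p of 0.05. The 95% intervals are fold change ± the normal quantile times the error, and implied group levels were solved from mean level and fold change for equal groups of 3. Depth per library is unknown in both lines.

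The LLC1 tables hold signal values deposited by the authors with no unit named; columns headed NC in the overexpression table were taken as EV, the control among the labels that name that table. Here log2(value + 1) of the overexpression table was fitted with limma 3.58.1 (R 4.3.3, trend on) over 2111 of 2509 rows with a mean of at least 0.5, and p was adjusted over those rows by Benjamini-Hochberg. The step was tested on simulated data. The design had foreseen count tests, which these units do not allow. The drug panel table served for 2 circular RNAs, without a test.

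The genes named (at most 2 known by identifier alone in each direction) are the 12 of highest level, the 10 largest called increases and decreases, the 3 nearest the level on each side, examples from the role lists, the 6 partner pairs with the largest lncRNA change, those with an LLC1 row, and genes of the companion lists. Genes and lists were chosen with earlier results of these data known, and the copy and microRNA pairs after their values were seen. GABPB1, AFAP1, MIR1915HG and the listed genes below the level of 300 that are named, outside the rule above, were likewise chosen after their values were seen. Alternatives were a stricter p, a 2-fold limit, levels of 100 and 1000, re-adjustment over all genes, centring, and for LLC1 the pseudocount, filter, trend, centring and each library left out.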

Additional observations from a re-analysis of the deposited data

Results flagged for a closer look

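In the LLC1 drug panel, a table that the comparisons above do not use, circular RNAs lay in mouse counterparts of 2 of the abundant lncRNAs, with signal in drug-treated libraries where all 3 DMSO libraries were listed at 0. A circular RNA of Pvt1 (mm10, chromosome 15, 62170758 to 62175926, plus strand) had a mean signal of 473 ± 16.0 after dactinomycin (491, 461 and 467) and 433 ± 42.5 after oxaliplatin (447, 467 and 386; SD, n = 3 each). It was also listed in 1 library with (R)-crizotinib and cisplatin, at 355, and in 1 with pemetrexed and cisplatin, at 1614, and at 0 with bortezomib and doxorubicin. Its end fell on an annotated exon end and its start did not fall on an exon start. A circular RNA of Ftx (mm10, chromosome X, 103595931 to 103615192, minus strand), with both ends on exons, had a mean of 7.92 ± 3.25 after dactinomycin (10.3, 9.22 and 4.22). After oxaliplatin its values were 0, 8.09 and 15.9. Of the 472 circular RNAs of that table, 4 to 5 were above 0 in a DMSO library, 430 to 440 in a dactinomycin library and 335 to 364 in an oxaliplatin library. No test was made. The signal is of the circle, not of its host transcript.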

How the results depend on the processing

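At an adjusted p of 0.01 the count of called genes was 50 (31 higher, 19 lower), with p re-adjusted over all genes 58 (36 and 22), and centred on the median of all genes, 0.04, 63 (34 and 29). Centred on the protein-coding median of -0.09 it was 61 (43 and 18). Values outside 1.5 times the reported 60 (36 and 24) came with a 2-fold limit, 16 (12 and 4), a level of 100, 149 (98 and 51), and a level of 1000, 15 (12 and 3); the last 2 change how many genes enter. Of the 127 single genes, 5 gained and 2 lost the call on the first centring and 7 gained and 6 lost it on the second, and none changed sign while called. Counts by role list stayed within 1.5 times on both. The count of called microRNA hosts, 5, was 7, 4 and 6 under the other host lists, which were chosen after seeing the data. The LLC1 difference of Snhg16 ran from -1.71 (pseudocount 0.1) to -1.33 (median-centred), and from -1.57 to -1.45 with 1 library left out. No paired analysis was possible because the H358 values are a finished comparison and the EV columns of the LLC1 table could be matched to their group but not to single numbered libraries.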
